A study of Mus musculus with 16 samples.

Results

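Spleen CD4+ dendritic cells (DC) were compared with common dendritic cell progenitors (CDP) of bone marrow by microRNA (miRNA) arrays. The comparison rests on 4 of the 16 arrays of the series, chosen by their labelled populations: CD4+ DC replicates 1 and 2 and CDP replicates 1 and 2. All cells came from female C57Bl/6 mice aged 6 weeks and were sorted without culture, and no treatment or genetic change is labelled for either population. CD4+ DC were sorted from spleen as CD11c+ CD4+ cells lacking CD8, CD3 and B220, in pools of 8 mice. CDP were sorted from femur and tibia marrow as CD135+ CD115+ CD117 low cells lacking lineage markers, among them CD11c, CD11b, CD4, B220, Ter-119 and Sca-1, in pools of 15 mice. Each array held the RNA of such a pool, and the labels call the 2 pools of a population biological replicates. Tissue (spleen or marrow), pool size and the pre-enrichment before sorting differed along with the cell type, so their shares in any difference cannot be told apart. The arrays carried miRNA probes only, so the messenger RNAs that define these cell types were not measured.

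CDP are marrow cells committed to the dendritic lineage, and they give rise to the classical DC of lymphoid organs as well as to plasmacytoid DC. CD4+ DC are the most abundant classical DC of the mouse spleen and present antigen mainly to helper T cells. A mature miRNA guides the silencing complex to messenger RNAs through its seed, the bases 2 to 8 from its 5′ end, so miRNAs with the same seed can share targets. miRNAs encoded close together are often cut from a common primary transcript.

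Of 604 mouse miRNAs on both array designs, the 175 that were detected on both arrays of at least 1 of the 8 populations were tested. Of the 4 arrays, 128 and 138 miRNAs were detected on those of CDP and 131 and 163 on those of CD4+ DC, and between 17.0 and 23.6 percent of their spots lay well above background. The arrays numbered 1 were of design 1 and those numbered 2 of design 2. A level is the log2 of the signal relative to the 75th percentile of 88 miRNAs that were detected on all 16 arrays. A level of 0 therefore equals that percentile. Signals too dim to measure were raised to a floor of -5.30 on design 1 and -5.78 on design 2, and 31 to 57 of the 175 tested miRNAs lay at it on the 4 arrays. A difference is CD4+ DC minus CDP on this log2 scale, taken within each replicate and averaged, with the standard error (SE) of a limma model over all 16 arrays. A miRNA is called higher or lower at a Benjamini-Hochberg adjusted p under 0.05.

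The mature sequences of miRNAs around which the differences gathered are given here, with the seed in capitals, as RefSeq lists them for build GRCm38.p6. The first set holds leading miRNAs that were higher in CD4+ DC, and it shows that miR-146a and miR-146b share a seed, as do the 3 members of the miR-29 family.
miR-146a: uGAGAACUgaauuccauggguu
miR-146b: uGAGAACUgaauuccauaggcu
miR-34a: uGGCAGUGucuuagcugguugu
miR-22: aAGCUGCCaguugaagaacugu
miR-342-3p: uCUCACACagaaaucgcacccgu
miR-29a: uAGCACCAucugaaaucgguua
miR-29b: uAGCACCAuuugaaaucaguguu
miR-29c: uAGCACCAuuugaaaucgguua
miR-142-5p: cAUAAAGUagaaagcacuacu
miR-142-3p: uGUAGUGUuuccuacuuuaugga
miR-21: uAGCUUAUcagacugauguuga
miR-155: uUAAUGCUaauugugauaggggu

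The second set holds leading miRNAs that were lower in CD4+ DC. In it the 4 members of the miR-181 family share a seed, as do miR-221 and miR-222, miR-27a and miR-27b, and miR-17 and miR-20a, while miR-18a, miR-19a, miR-92a and miR-126-3p each have another.
miR-181a: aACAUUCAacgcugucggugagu
miR-181b: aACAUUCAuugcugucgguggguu
miR-181c: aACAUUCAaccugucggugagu
miR-181d: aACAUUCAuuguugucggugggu
miR-221: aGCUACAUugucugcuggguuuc
miR-222: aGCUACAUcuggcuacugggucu
miR-27a: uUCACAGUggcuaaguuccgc
miR-27b: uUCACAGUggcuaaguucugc
miR-17: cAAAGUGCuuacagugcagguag
miR-20a: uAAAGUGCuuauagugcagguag
miR-18a: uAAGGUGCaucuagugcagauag
miR-19a: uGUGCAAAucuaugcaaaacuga
miR-92a: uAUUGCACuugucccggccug
miR-126-3p: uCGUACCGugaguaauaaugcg

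The third set shows miRNAs of a common seed that were called in opposite directions. The calls of miR-148b, miR-322 and let-7b were lost under some other ways of processing, as described below.
miR-148a: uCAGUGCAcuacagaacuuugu
miR-148b: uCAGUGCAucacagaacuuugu
miR-15a: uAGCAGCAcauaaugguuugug
miR-16: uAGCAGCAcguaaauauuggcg
miR-322: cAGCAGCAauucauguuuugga
let-7g: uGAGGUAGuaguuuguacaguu
let-7b: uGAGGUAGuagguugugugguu

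CD4+ DC and CDP differed at 88 of the 175 tested miRNAs, which is 50.3 percent. In CD4+ DC 52 were higher (29.7 percent) and 36 lower (20.6 percent). All 88 had the same sign within both replicates. The difference was at least 2-fold for 31 of those higher and 22 of those lower, and at least 4-fold for 12 and 8. The 2 levels of CD4+ DC lay wholly above or wholly below the 2 of CDP for 106 miRNAs (60.6 percent). The median difference over all 175 was 0.01 and the median SE 0.19. Across the 175 miRNAs, which are not independent replicates, the difference in replicate 1 and that in replicate 2 correlated with r = 0.917. Because each array was scaled to its own signal, a level is relative to that array's 75th percentile and is not an absolute amount. Fewer cells of a type therefore cannot be told apart from less RNA per cell.

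The split between higher and lower calls moved with the scaling. Scaling to the 75th percentile of all miRNAs gave 78 calls, 34 higher and 44 lower, and quantile normalization gave 84, 42 higher and 42 lower. Of the 88 calls, 68 held in the same direction under both, 33 of them higher and 35 lower, and 2 of those called higher changed sign under at least 1 of them. Another background correction, normexp with an offset of 50, left 36 calls, 21 higher and 15 lower. Among the 66 called miRNAs described individually here, 31 kept their call under every alternative tried, and 10 lost it with normexp and nowhere else, namely miR-17, miR-30a, miR-126-3p, miR-130a, miR-146b, miR-181a-1*, miR-181d, miR-196b, miR-222 and miR-361.

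**Figure D1:**
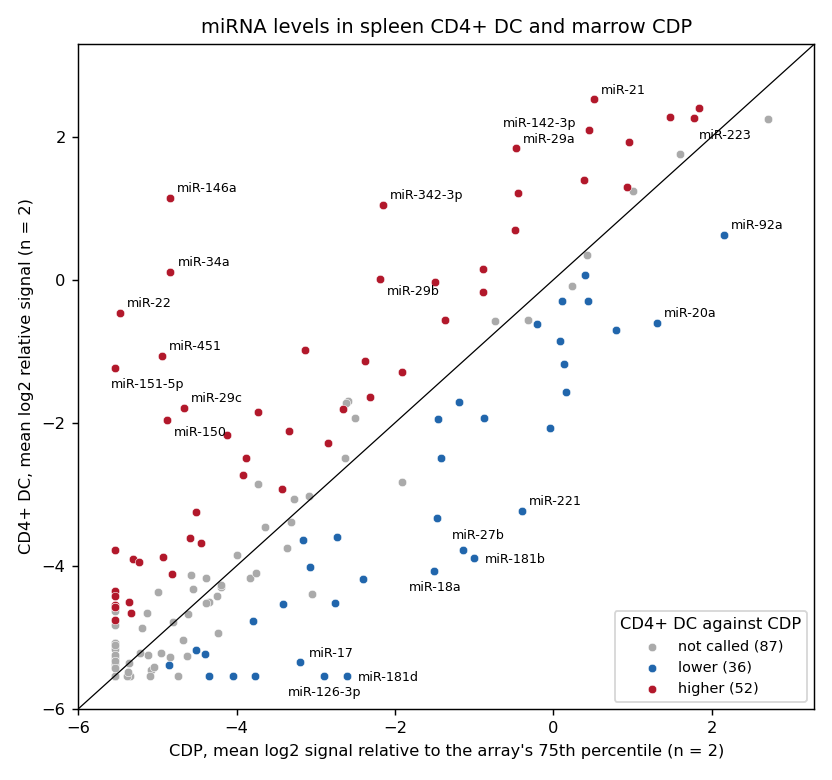
Mean log2 level in CDP (horizontal axis) against CD4+ DC (vertical axis) for the 175 tested miRNAs, each level relative to the array's 75th percentile and each point the mean of 2 arrays. Red points (52) were called higher and blue points (36) lower in CD4+ DC, grey points (87) were not called, and the line marks equal levels; miR-146a, miR-34a and miR-22 lie farthest above it.

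The largest rise was that of miR-146a, a miRNA known to restrain signalling from Toll-like receptors to NF-κB. Its level was 1.15 on both CD4+ DC arrays and -4.83 and -4.86 on the CDP arrays. CD4+ DC thus had a 63.6-fold higher level, and the difference was 5.99 ± 0.31 (SE, adjusted p = 1.17e-06 by limma, n = 2 per population). The size of this fold rests on dim CDP signals. They were 17.9 and 18.5 before scaling, where the lowest detected probes of those arrays gave 14.3 and 14.4. With normexp the difference was 3.89. The probes of miR-146a map to chr11:43187908-43187925 of build mm9. Its relative miR-146b, encoded on another chromosome, was at -3.80 and -3.99 in CD4+ DC and at -5.30 and -5.32 in CDP. The -5.30 of CDP replicate 1 is the floor and not a measured level. The difference of miR-146b was 1.41 ± 0.17, and its probes differed, with differences of 0.12 and 1.44.

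Other miRNAs whose levels rise when immune cells are activated were higher too. miR-34a, a target of p53 that is also induced during myeloid differentiation, had levels of 0.12 and 0.10 in CD4+ DC against -4.84 and -4.83 in CDP, a difference of 4.95 ± 0.28. Its CDP signals, 17.7 and 18.8 before scaling, were similarly dim, and with normexp the difference was 2.92. miR-21, a miRNA induced in inflammation, was at 2.66 and 2.40 against 0.52 and 0.51 in CDP, a difference of 2.02 ± 0.38. miR-155, a regulator of DC maturation and of antibody responses, was at -2.42 and -1.91 against -4.0 and -4.25, a difference of 1.96 ± 0.36. For these miRNAs the CD4+ DC arrays did not overlap with the CDP arrays, as for 60.6 percent of all tested miRNAs. Of 8 miRNAs listed as activation associated, 5 were tested and all 5 were called higher, beside 29.7 percent over all tested miRNAs. Their median difference was 2.02 against 0.01 over all tested miRNAs. The list was chosen with earlier results of these data known. The other members, miR-132, miR-147 and miR-9, were not above background on any of the 4 arrays. The call of miR-155 was lost with normexp and in a fit of the 4 arrays alone.

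miR-22, which is expressed widely in myeloid cells, was close to background in CDP, where it was detected on 1 of 2 arrays. Its levels were -0.35 and -0.57 in CD4+ DC and -5.30 and -5.65 in CDP, a difference of 5.02 ± 0.22. The -5.30 of CDP replicate 1 is the floor and not a measured level. The probes of miR-22 gave 4.06 and 5.11. miR-151-5p was not above background in CDP and had levels of -1.18 and -1.28 in CD4+ DC. CD4+ DC had an at least 15.5-fold higher level of miR-151-5p (adjusted p = 1.17e-06 by limma), a bound set against the lowest signal at which a probe was detected. In the same way miR-28 was at least 2.65-fold higher, at -3.76 and -3.80 in CD4+ DC. With normexp (0.21) and in a fit of the 4 arrays alone, miR-28 was not called. In all, 7 of the miRNAs called higher were not above background on either CDP array.

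**Figure D2:**
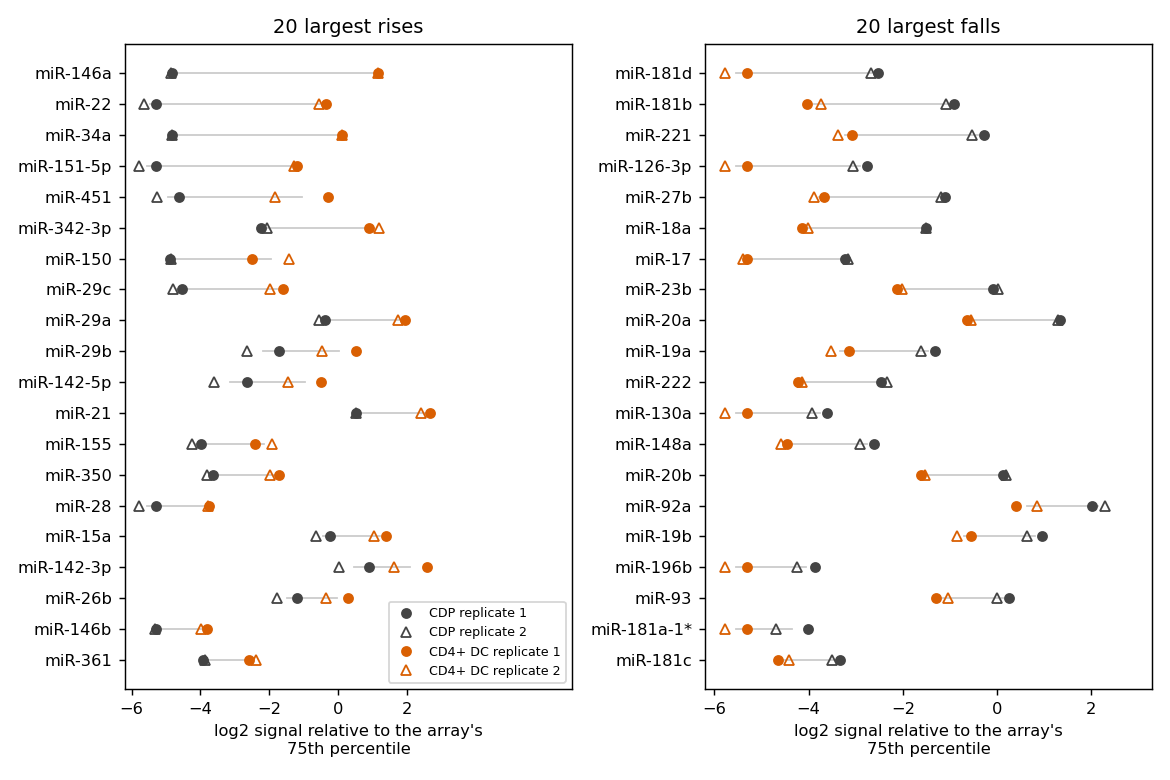
Log2 level on each array for the 20 largest rises (left) and the 20 largest falls (right) among called miRNAs; grey symbols are CDP, orange symbols CD4+ DC, circles replicate 1, triangles replicate 2, and each line joins the population means. In all 40 rows both orange symbols lie on the same side of both grey symbols, beside 60.6 percent of all tested miRNAs. The rows were chosen from these data for large called differences, so their separation follows largely from that choice. The widest gap between CD4+ DC replicates is that of miR-451 (-0.29 and -1.83).

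Of 5 myeloid miRNAs, 4 were called higher, beside 29.7 percent over all tested miRNAs, and their median difference was 2.02 against 0.01. Both arms of miR-142, a hairpin active in all blood cells and encoded on chromosome 11, rose together. miR-142-3p was at 2.57 and 1.61 in CD4+ DC and at 0.90 and 0.01 in CDP, and miR-142-5p at -0.50 and -1.45 against -2.66 and -3.61. Replicate 2 was lower than replicate 1 in both populations, and within replicates the rise was 1.67 and 1.60 for miR-142-3p and 2.15 and 2.16 for miR-142-5p. The myeloid miRNA that was not called was miR-223, which restrains granulocyte production. Its levels were 2.27 and 2.24 in CD4+ DC and 2.64 and 2.78 in CDP, a difference of -0.45 ± 0.20 (adjusted p = 0.0859 by limma).

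The miR-29 family, known for repressing collagens and the DNA methyltransferases, was higher throughout. miR-29a had levels of 1.94 and 1.75 in CD4+ DC against -0.38 and -0.56 in CDP. The rises were 2.31 ± 0.12 for miR-29a, 2.21 ± 0.23 for miR-29b and 2.88 ± 0.18 for miR-29c. miR-29b and miR-29c are encoded within 10 kb on chromosome 1, and miR-29b again beside miR-29a on chromosome 6. All 5 members of the miR-30 family were called higher as well, beside 29.7 percent over all tested miRNAs. Their median difference was 0.85, from 0.57 ± 0.18 for miR-30d to 1.25 ± 0.12 for miR-30b. Of these, miR-30b kept its call under every alternative; miR-30d lost it without replicate 2 of either population, at 0.47 without that of CD4+ DC and 0.46 without that of CDP. The calls of miR-30c (0.18), miR-30d (0.12) and miR-30e (0.41) were lost with the 75th percentile of all miRNAs, and those of miR-30c (0.30) and miR-30d (0.15) with quantile normalization. The rises of miR-26a and miR-26b, which repress the methyltransferase EZH2, were 1.19 ± 0.16 and 1.46 ± 0.15.

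The miR-342-3p and miR-150 miRNAs, known chiefly from lymphocytes, were among the largest rises. miR-342-3p was at 0.90 and 1.20 in CD4+ DC against -2.24 and -2.07 in CDP, a difference of 3.20 ± 0.29. miR-150, which targets the transcription factor MYB, was at -2.49 and -1.43 against -4.90 and -4.87, a difference of 2.92 ± 0.56. Both were higher in both replicates, and miR-150 was uneven between the CD4+ DC arrays. The call of miR-150 was lost with normexp (1.21, adjusted p = 0.166 by limma) and in a fit of the 4 arrays alone. The third miRNA of the lymphocyte list, miR-181a, was lower in CD4+ DC, by -0.52 ± 0.13. All 3 were detected on all 4 arrays. The summed signal of the list, relative to the 75th percentile, was 2.33 and 3.0 in CD4+ DC and 0.721 and 0.676 in CDP. The gates of both populations exclude cells with CD3 or B220, and the part of such cells in these differences was not tested.

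miR-451, the miRNA of red blood cell precursors, had the largest SE of all tested miRNAs. Its levels were -0.29 and -1.83 in CD4+ DC and -4.63 and -5.26 in CDP, a difference of 3.89 ± 1.08 (adjusted p = 0.0137 by limma). The call was lost without CD4+ DC replicate 1 (difference 3.42, adjusted p = 0.0817), without CDP replicate 1 (3.83, adjusted p = 0.0649) and without CDP replicate 2 (3.94, adjusted p = 0.0583). The other erythroid markers, miR-144 and miR-486, were not above background on any of the 4 arrays. The summed signal of the 3 erythroid markers was 0.843 and 0.296 in CD4+ DC and 0.0404 and 0.0269 in CDP. Ter-119, a red cell marker, is listed in the gate of CDP and not in that of CD4+ DC, and the part of red cells in this difference was not tested. Of 15 markers of stromal, endothelial, muscle and epithelial cells, none was above background in CDP, and miR-200b and miR-200c alone were in CD4+ DC. miR-200b was called higher, at -4.64 and -4.50 in CD4+ DC, at least 1.53-fold above CDP, with probes that gave 0 and 1.65. That call was lost with normexp (0.01) and in a fit of the 4 arrays alone.

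The falls were led by the miR-181 family, which tunes receptor signalling in lymphocytes and was lower in CD4+ DC in all 4 members. Over all tested miRNAs 20.6 percent were called lower. miR-181b had levels of -4.03 and -3.75 in CD4+ DC and -0.92 and -1.08 in CDP, a difference of -2.89 ± 0.15 (7.41-fold lower, adjusted p = 1.17e-06 by limma). miR-181d was at the floor or next to it in CD4+ DC, detected on 1 of 2 arrays, against -2.52 and -2.68 in CDP, a difference of -2.93 ± 0.29. miR-181c fell by 1.12 and miR-181a by 0.52 on the log2 scale. Members that share the seed printed above thus fell by unequal amounts, and miR-181a had the smallest fall. Levels of different miRNAs rest on different probes and are not compared here. The fall of miR-181a was not called without replicate 1 of either population (-0.43 without that of CD4+ DC and -0.33 without that of CDP).

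miR-221 and miR-222, neighbours on chromosome X that are known to repress the receptor KIT and the cell cycle inhibitor p27, fell together. miR-221 was at -3.07 and -3.39 in CD4+ DC and at -0.27 and -0.52 in CDP, a difference of -2.83 ± 0.16. For miR-222 the levels were -4.23 and -4.13 against -2.46 and -2.34, a difference of -1.78 ± 0.14. Neither overlapped between the populations, as for 60.6 percent of all tested miRNAs. Their probes map to chrX:18723483-18723501 and chrX:18724075-18724087 of mm9.

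The miR-17 clusters are a set of miRNAs that promotes proliferation and early B cell survival. All 10 tested members were called lower, beside 20.6 percent over all tested miRNAs. Their median difference was -1.62 against 0.01 over all tested miRNAs. miR-18a had levels of -4.14 and -4.01 in CD4+ DC against -1.51 on both CDP arrays, a difference of -2.56 ± 0.19. miR-20a was at -0.65 and -0.55 against 1.33 and 1.29, a difference of -1.90 ± 0.12, and miR-92a at 0.41 and 0.86 against 2.02 and 2.29, a difference of -1.52 ± 0.11. The CD4+ DC arrays lay below the CDP arrays for each of these, and 60.6 percent of all tested miRNAs likewise did not overlap. miR-17 fell by 2.15 to the edge of detection, with probes that gave -2.25 and -1.21. These probes map to the chromosome X stretch as well as to chromosome 14, so their signal cannot be assigned to miR-17 alone. The 10 members come from 3 stretches of the genome, on chromosome 14 (chr14:115442916-115443718 of mm9 for the probes), chromosome X and chromosome 5. The members of the chromosome 5 cluster fell least, by 0.41 for miR-106b, 0.73 for miR-25 and 1.30 for miR-93. The call of miR-106b was lost without replicate 1 of either population or CD4+ DC replicate 2 (-0.45, -0.29 and -0.36 without CD4+ DC replicate 1, CDP replicate 1 and CD4+ DC replicate 2).

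Of the miR-23, miR-27 and miR-24 clusters, 4 of 5 members were called lower, beside 20.6 percent over all tested miRNAs. The members of the chromosome 13 cluster fell by 2.63 (miR-27b) and 2.03 (miR-23b), and those of chromosome 8 had smaller differences. miR-27a had a difference of -1.06 ± 0.26 and miR-23a, which was not called, one of -0.32 ± 0.17 (adjusted p = 0.159 by limma). miR-27a and miR-27b share a seed and differ by a single base. miR-24 is encoded in both clusters and cannot be assigned to either. It fell by 0.95. Without CDP replicate 1, miR-27a was not called (-0.87, adjusted p = 0.0628).

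**Figure D3:**
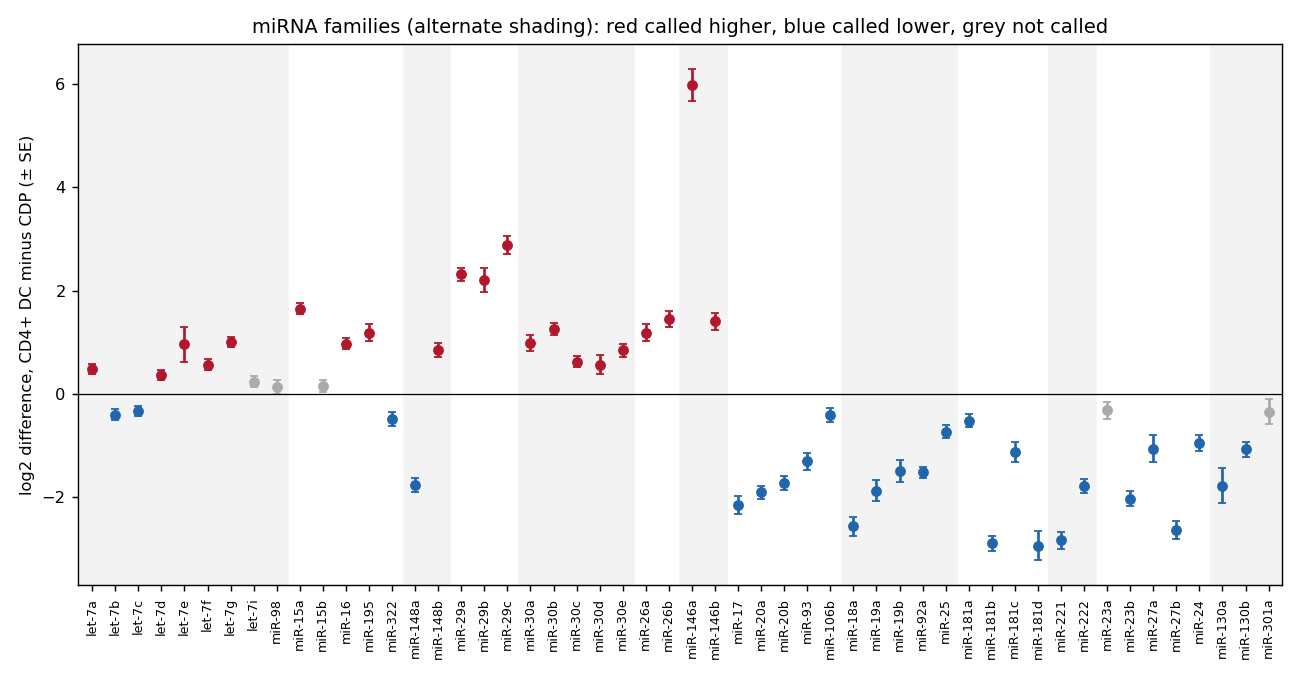
Log2 difference, CD4+ DC minus CDP, for the members of 13 groups of related miRNAs, set apart by shading, with bars of ± 1 SE from the model over 16 arrays. The miR-29, miR-30, miR-26 and miR-146 members are called higher and the miR-17, miR-181 and miR-221 and miR-222 members called lower, whereas let-7, miR-15/16 and miR-148 hold calls in both directions (of these, let-7a and let-7d change sign under another scaling).

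Of 13 miRNAs listed as associated with stem and early progenitor cells, 7 were tested, and 3 were called lower, 1 higher and 3 not at all. The 4 calls stand beside 50.3 percent called over all tested miRNAs, and the list's median difference was -0.39. miR-126-3p, which is known from endothelium and from blood stem cells, was at -2.75 and -3.05 in CDP and not above background in CD4+ DC, at least 5.48-fold lower (adjusted p = 1.27e-05 by limma). miR-130a and miR-196b, the latter encoded in the HOXA cluster, were not above background in CD4+ DC either, with levels at least 3.01-fold and 2.47-fold lower. miR-125b-5p, miR-99a and miR-10a differed by 0.06 ± 0.28, 0.15 ± 0.21 and -0.39 ± 0.40 and were not called. miR-125b-5p and miR-99a changed sign with the scaling, to -0.38 and -0.29 with the 75th percentile of all miRNAs. let-7e was not above background in CDP and was called higher in CD4+ DC, at least 1.52-fold, with a probe that gave 0.22 and another that gave 1.5. That call was lost with the 75th percentile of all miRNAs, quantile normalization and the brightest probe, and on leaving out each of the 4 arrays in turn. The fitted differences, set against CDP values at the floor, were then 0.72 without CD4+ DC replicate 2, 1.20 without CD4+ DC replicate 1, 1.16 without CDP replicate 1 and 0.75 without CDP replicate 2.

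Families with calls in both directions were fewer. RefSeq sequences were matched for 152 of the 175 miRNAs, and 18 seeds were shared by 2 or more of them. For 11 seeds, 2 or more members were called and all in the same direction, and for 3 seeds members were called in both. Over all tested miRNAs 50.3 percent were called. Some members of a seed, such as miR-19a and miR-19b, differ by 1 base. How much signal their probes share was not tested. Within the miR-148 pair, miR-148a, which was at -2.62 and -2.91 in CDP, fell to -4.47 and -4.58 (-1.76 ± 0.14). In contrast miR-148b went from -5.30 and -5.43 to -4.44 and -4.57, a rise of 0.86 ± 0.14. The -5.30 of CDP replicate 1 is the floor and not a measured level. Neither miRNA overlapped between the populations, as for 60.6 percent of all tested miRNAs. The rise of miR-148b was not called with the 75th percentile of all miRNAs and was -0.01 with normexp.

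In the family of miR-15 and miR-16, which represses BCL2 and cyclins, miR-15a rose by 1.65 ± 0.11, miR-16 by 0.97 ± 0.11 and miR-195 by at least 1.78-fold, with probes that gave 0 and 1.82. With normexp (0.03) and in a fit of the 4 arrays alone, miR-195 was not called. miR-322, encoded on chromosome X, was lower by -0.48 ± 0.14, and miR-15b was not called (0.16 ± 0.11). miR-16 is encoded beside miR-15a on chromosome 14 and beside miR-15b on chromosome 3. The call of miR-322 was lost with quantile normalization (-0.47), with normexp (-0.39), without a filter and in a fit of the 4 arrays alone. It was also lost without CD4+ DC replicate 2 (-0.42) and without CDP replicate 1 (-0.31).

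The let-7 family, which promotes differentiation in many tissues, showed small differences. Of 9 tested members, let-7a, let-7d, let-7e, let-7f and let-7g were called higher, let-7b and let-7c lower, and let-7i and miR-98 were not called. Over all tested miRNAs 50.3 percent were called. let-7g, at 1.46 and 1.32 in CD4+ DC against 0.45 and 0.31 in CDP, rose by 1.01 ± 0.09 and was the member that kept its call under every alternative tried. The falls of let-7b (-0.40 ± 0.10) and let-7c (-0.33 ± 0.10) were small beside the median of the miR-17 clusters (-1.62). They were close to the smallest fall there, that of miR-106b (-0.41). Neither let-7b nor let-7c was called with normexp (-0.36 and -0.30) or without the replicate block. The median of the family was 0.37, and it turned to -0.07 with the 75th percentile of all miRNAs and to -0.11 with quantile normalization. Under these scalings let-7d was at -0.07 and -0.11, and let-7a at -0.06 with quantile normalization. Without CD4+ DC replicate 1 the calls of let-7b (-0.38), let-7c (-0.37) and let-7d (0.34) were lost, and without CDP replicate 1 likewise (-0.34, -0.30 and 0.37). Without CD4+ DC replicate 2, let-7c (-0.29) was lost, and without CDP replicate 2, let-7c (-0.36) and let-7d (0.37). The sequences of these miRNAs differ by 1 to 6 bases, and how much signal their probes share was not tested.

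The called miRNAs were also grouped by position in the genome. The tested miRNAs formed 33 groups on a strand with neighbours within 10 kb, which hold 81 miRNAs. In 21 groups 2 or more members were called, all in the same direction, and in 0 groups were members called in opposite directions. Over all tested miRNAs 50.3 percent were called. Arms of a single hairpin count as members. Among the 21 groups, those of miR-142, miR-340 and miR-140 hold nothing else. Among the other groups the same is true of miR-342, miR-130b, miR-138, miR-139, miR-483 and miR-1897. On chromosome 13, let-7d, let-7f and let-7a form such a group with 3 calls higher, and on chromosome 15, let-7c and let-7b form another with 2 calls lower. miR-99a and let-7c lie together on chromosome 16, where let-7c alone was called. Some miRNAs are encoded at more than 1 locus. The probes of miR-17 map to chromosome X as well, although RefSeq lists miR-17 on chromosome 14 alone. Such miRNAs count in each group, so the groups are not independent. On chromosome X, the miR-532 cluster had 7 tested members, of which miR-532-5p (1.11 ± 0.24) and miR-500 (1.22 ± 0.41) were called higher, beside 29.7 percent over all tested miRNAs. miR-532-5p lay at the floor in CDP replicate 1, and its probes gave 0.32 and 1.29. Its call was lost with normexp (0.06) and in a fit of the 4 arrays alone. miR-500 was not called without CD4+ DC replicate 1 (0.78) or CDP replicate 2 (0.85), with the 75th percentile of all miRNAs (0.78), with quantile normalization (0.98), with normexp (0.59) or without a filter. Of the 29 listed miRNAs of the imprinted Dlk1-Dio3 locus, miR-370 and miR-494 were tested and neither was called. miR-370 was not above background in CDP, and miR-494 differed by -0.23 ± 0.93.

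The levels of CD4+ DC were also placed among the 8 populations, which besides CDP are MP, a marrow progenitor whose abbreviation the labels do not explain, macrophage and DC progenitors (MDP), Gr1+ monocytes, plasmacytoid DC (PDC) and the CD8+ and CD4-CD8- DC of spleen. Of the 52 miRNAs called higher, CD4+ DC had the highest mean of all for 18 and CD8+ DC for another 18. Of the 36 called lower, CD4+ DC had the lowest mean for 25, ties at the floor included. miR-146a was between 0.32 and 1.15 on the 6 spleen DC arrays, at -0.55 and -1.59 in PDC and at -3.92 or below on the other 8. miR-34a was at -1.43 or above on the spleen DC arrays and at -3.22 or below elsewhere, PDC included. miR-22 was also high in Gr1+ monocytes (-1.0 and -1.39). miR-221 was lowest in CD4+ DC, below CD4-CD8- DC at -2.36 and -2.35, and miR-126-3p lay at background in every spleen DC population and in Gr1+ monocytes. These are levels with 2 arrays each, and the order was tested only as follows.

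**Figure D4:**
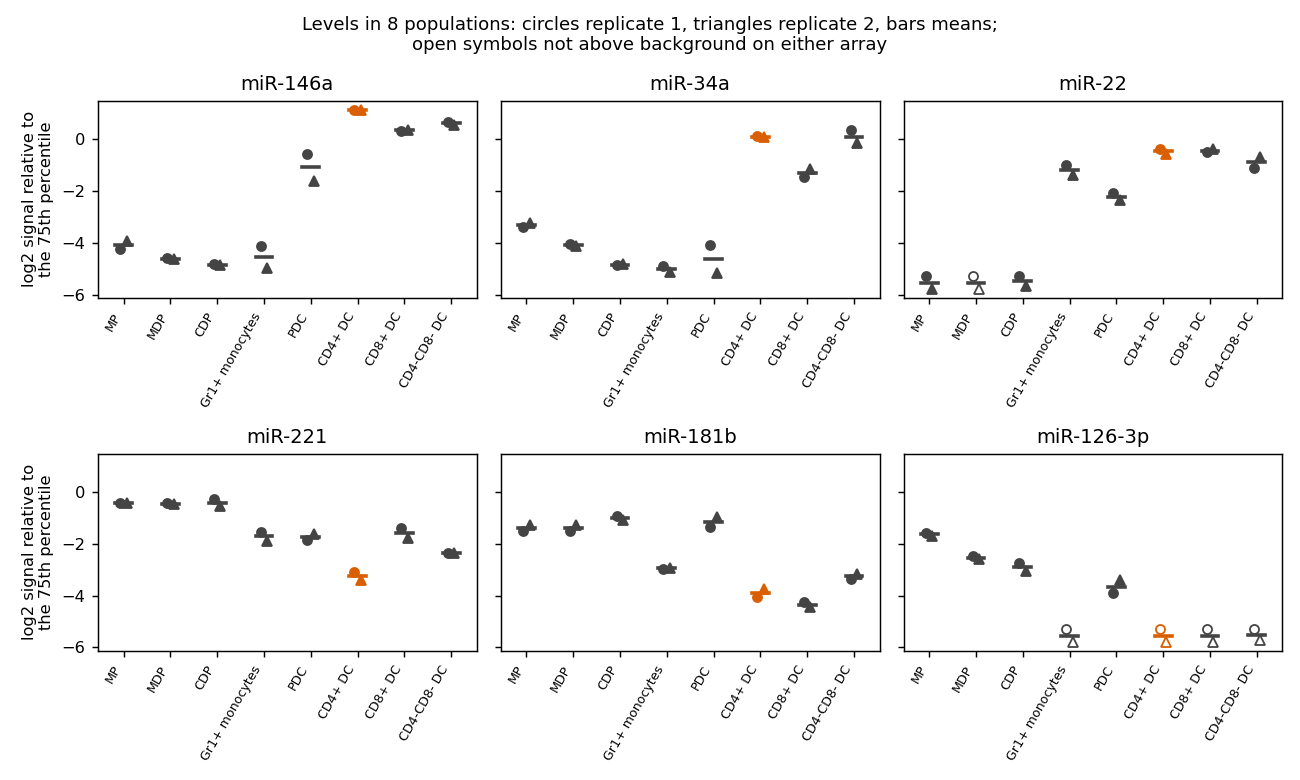
Log2 level on each array of 3 miRNAs with large rises (top) and 3 with large falls (bottom) in the 8 populations; circles are replicate 1, triangles replicate 2, bars the mean of 2, and orange marks CD4+ DC. Open symbols mark populations in which the miRNA was not above background on either array, as for miR-126-3p in all spleen DC and in Gr1+ monocytes.

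CD4+ DC were then set directly against the other spleen DC. These comparisons use the same CD4+ DC arrays as that with CDP, and the labels list CD86 among the markers of the CD8+ DC alone. Against CD8+ DC, the DC that excel at cross-presentation, 54 miRNAs were called (30.9 percent), 11 higher (6.29 percent) and 43 lower (24.6 percent), and the levels of 96 (54.9 percent) did not overlap. This balance rested on the scaling. With the 75th percentile of all miRNAs the median difference moved from -0.23 to 0.22 and the calls to 50 higher and 6 lower, and with quantile normalization to 20 and 18. In all, 17 calls held in the same direction under the 3 scalings, 11 higher and 6 lower, and 12 changed sign under at least 1 of the others. The calls numbered 25 without the replicate block, 33 without CD4+ DC replicate 1 or CD8+ DC replicate 1, 3 with normexp and 0 in a fit of the 4 arrays alone.

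The largest of the 11 that held as higher in CD4+ DC was miR-34a, at 0.12 and 0.10 against -1.43 and -1.14 in CD8+ DC, a difference of 1.40 ± 0.28 (adjusted p = 0.00659 by limma). miR-125b-5p (1.25 ± 0.28) and miR-99a (1.20 ± 0.21), which had not been called against CDP, came next, followed by miR-28 (1.03 ± 0.18) and miR-340-5p (0.94 ± 0.19). miR-125b-5p was uneven in CD8+ DC, at -4.87 and -3.67, and lay at -3.06 and -2.98 in CD4+ DC. The 6 that held as lower were miR-714, miR-138, miR-139-3p, miR-365, miR-221 and miR-125a-3p. miR-138 was at -4.61 and -4.48 in CD4+ DC against -2.02 and -2.41 in CD8+ DC, a difference of -2.34 ± 0.15 (adjusted p = 2.69e-05 by limma), and was not above background in the other 6 populations. miR-365 was not above background in CD4+ DC and at least 3.69-fold lower, and miR-221 differed by -1.67 ± 0.16. miR-714 (-2.47 ± 0.42) and miR-139-3p (-2.06 ± 0.32) had larger gaps in replicate 1 than in replicate 2. miR-202-3p (-1.87 ± 0.35), also among the largest falls, was not called under all 3 scalings.

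**Figure D5:**
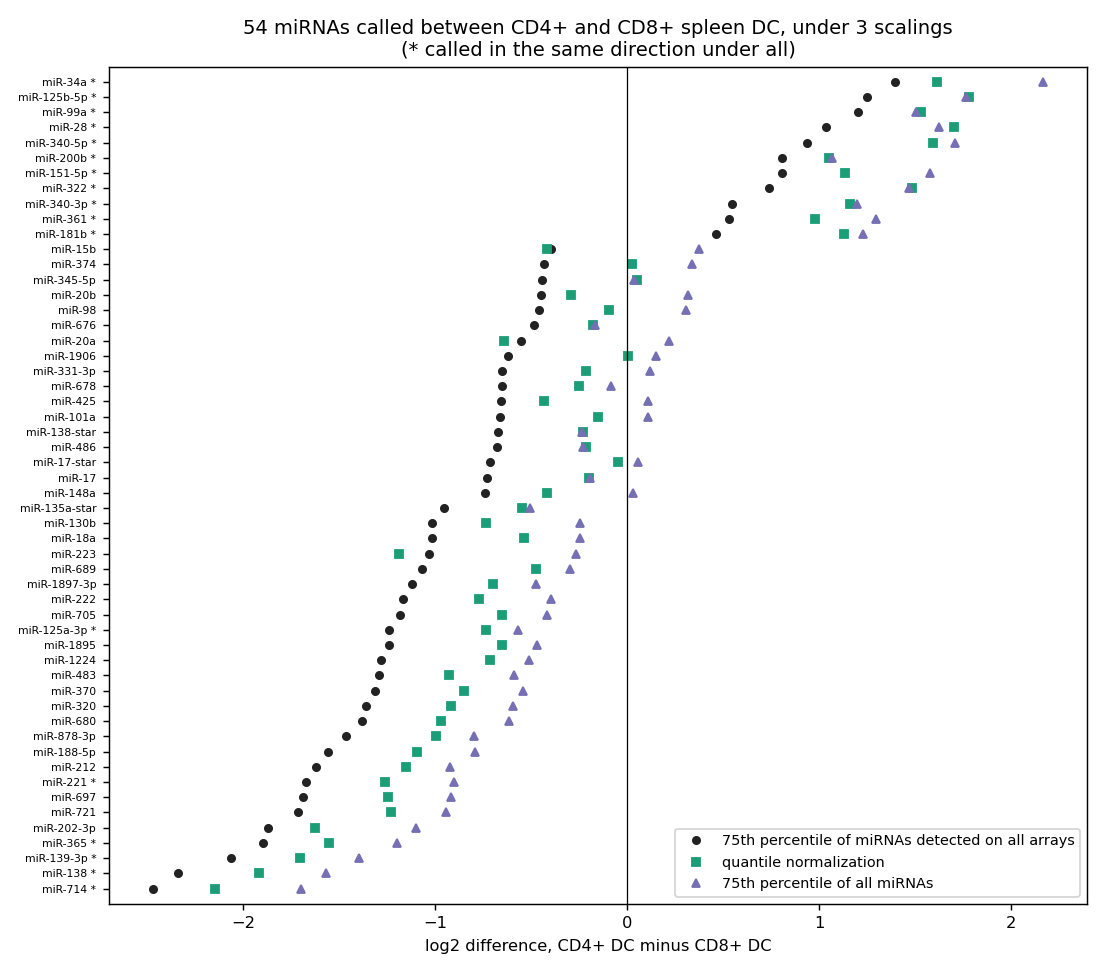
Log2 difference, CD4+ DC minus CD8+ DC, of the 54 miRNAs called between them, under the scaling used here (black circles), quantile normalization (green squares) and the 75th percentile of all miRNAs (violet triangles); the ending -star stands for the asterisk of a minor arm. The other scalings move most points to the right, and the 17 names marked with an asterisk were called in the same direction under all 3.

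Against CD4-CD8- DC, 8 miRNAs were called (4.57 percent), and the levels of 55 (31.4 percent) did not overlap. miR-138 was not above background in CD4-CD8- DC and was at least 1.48-fold higher in CD4+ DC (adjusted p = 0.0228 by limma). It was the single call in that direction, 0.571 percent of those tested. The 7 called lower (4 percent), each by less than 2-fold, were miR-181c (-0.89 ± 0.19), miR-221 (-0.88 ± 0.16), miR-23a (-0.80 ± 0.17), miR-23b (-0.74 ± 0.15), miR-181b (-0.64 ± 0.15), miR-181a (-0.60 ± 0.13) and miR-92a (-0.55 ± 0.11). None of the 8 held under both other scalings, and the fit without the replicate block gave 0 calls, with 33 miRNAs at an unadjusted p under 0.05 in the fit with the block. The calls numbered 2 without CD4+ DC replicate 1, 1 without CD4+ DC replicate 2, 0 without CD4-CD8- DC replicate 2 and 11 without CD4-CD8- DC replicate 1. Neither miR-146a (0.53 ± 0.31) nor miR-34a (0.00 ± 0.28) was called between CD4+ and CD4-CD8- DC.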

How the data were processed

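Cy3-labelled RNA had been hybridised to 1-colour Agilent miRNA arrays of 2 designs. Spot intensities had been extracted and background-subtracted by the authors with Agilent's Feature Extraction, of version 10.7.3.1 in the headers and 9.1 per the submitters' processing notes, and the deposited processed intensities are linear and not scaled between arrays. The deposited value tables equal them at 3 significant digits.

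Spots marked as outliers were left out, and spots, then probes, were averaged per miRNA (20 spots each). A miRNA was detected on an array where a share of at least 0.5 of a probe's spots was well above background. Each array was scaled to its 75th percentile over 88 miRNAs detected throughout the 16 arrays, floored at the 5th percentile of detected values of the design and logged. The log2 values of 175 miRNAs on 16 arrays entered a model of limma 3.58.1 (R 4.3.3) with a term per population, replicate as a block and 8.52 residual degrees of freedom after moderation. The labels' replicate numbers mark the array design and therefore pair the arrays. Deviations from the group means on arrays of the same number correlated in all 28 pairs of populations (r from 0.297 to 0.917, and 0.557 for CD4+ DC with CDP). These values include signals raised to the floor, which differs between the designs. Signals at the floor in both populations of a pair deviate alike by construction, so the correlations do not measure the pairing alone. The number of arrays limits the precision.

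Named individually were the 20 largest rises and 20 largest falls, all tested members of 21 lists, 9 set miRNAs, and the 5 largest rises and falls against each other spleen DC. Further miRNAs named against CD8+ DC were chosen after their values were seen, because they held under 3 scalings. The members and lists were chosen with earlier results of these data known. Sequences are RefSeq's, and probe positions are those of the deposited files, build mm9. Mouse miRNAs of a single design (7 of design 1 and 92 of design 2) and other probes were left out.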

Additional observations from a re-analysis of the deposited data

Results flagged for a closer look

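Array design 2 alone carried 92 mouse miRNAs, which the comparisons do not use because replicate 1 of no population measured them. On the replicate 2 arrays, 30 of them were detected in CD4+ DC and 28 in CDP. In CD4+ DC and not in CDP 3 were detected, and in CDP and not in CD4+ DC 1 was, miR-2183. Of the 3, miR-1306 was detected at -4.21, which is 1.57 above the floor at which CDP lay, and miR-3472 at -4.35, which is 1.43 above it. miR-1941-5p, the third, lay at the floor in both populations. All 3 were dim, with a single array per population, and have no test. Among those detected in both populations, miR-1949 had the largest difference, at -1.10 in CD4+ DC and 0.73 in CDP.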

How the results depend on the processing

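Over the alternatives tried, the count of calls against CDP stayed between 60 and 100 except with normexp (36), with 81 calls without the replicate block, 77 to 84 when single arrays were left out and 88 from the value tables. The block, which pairs the arrays by design, mattered more within spleen. Against CD8+ DC the 54 calls became 28 with miRNAs detected on all arrays, 29 without a filter, 25 without the block, 3 with normexp, 0 with the 4 arrays alone and 33 to 38 with an array left out. Against CD4-CD8- DC the 8 calls became 0 with the 75th percentile of all miRNAs, with normexp, without a filter, without the block and with the 4 arrays alone, 1 with quantile normalization and 0 to 11 with an array left out. Of 1177 single values of 86 miRNAs, 25 changed sign. With the 75th percentile of all miRNAs these were miR-125b-5p (-0.38), miR-99a (-0.29), let-7d (-0.071), let-7i (-0.21), miR-98 (-0.31) and miR-15b (-0.29). With quantile normalization they were miR-125b-5p (-0.075), let-7a (-0.056), let-7d (-0.11), let-7i (-0.41), miR-98 (-0.24) and miR-15b (-0.47). With normexp they were miR-125b-5p (-0.093), miR-99a (-0.12), miR-98 (-0.021) and miR-148b (-0.013), and with the brightest probe miR-125b-5p (-0.15), miR-99a (-0.041) and miR-98 (-0.0027). The let-7 median became -0.071 and -0.11 under the first 2 scalings, and the Dlk1-Dio3 median, 0.11 over 2 miRNAs, became -0.059, -0.097, -0.23 and -0.22 with the 75th percentile of all miRNAs, normexp, miRNAs detected on all arrays and the brightest probe. With an array left out, miR-125b-5p ran from -0.11 to 0.24, miR-188-5p from -0.42 to 0.21, miR-494 from -0.83 to 0.36 and the Dlk1-Dio3 median from -0.32 to 0.54. The cause of these changes was not tested.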
